A study of Mus musculus with 18 samples.

Results

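Kcnmb2 and Slc44a5 are a pair of mouse genes on chromosome 3, taken from 17236 protein-coding genes with at least 20 usable CpGs. They were picked from measured values: each holds a 1 kb tile whose methylation fell by more than 80 percentage points from the WT level, in W464A/W465A cells for Kcnmb2 and in W464A/W465A/W796A cells for Slc44a5. Each is the tile with the largest such fall in its gene when CpGs are held to at least 5 reads per library. The falls that chose the tiles are therefore given below as a description, without a test. The genes hold 1411 of the 6143659 CpGs that had at least 1 read in all 18 libraries (usable CpGs), and 212 of the 773437 tiles with at least 3 usable CpGs.

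The assay was eRRBS, an enhanced form of reduced representation bisulfite sequencing, in which DNA is cut with restriction enzymes, unmethylated cytosine is converted with bisulfite and the fragments are sequenced. The cells were mouse embryonic stem (ES) cells lacking their own Dnmt1, grown on gelatin with serum and leukemia inhibitory factor. All were transfected with the pPyCAGIP vector and selected with puromycin, which the WT controls share. The vector carried WT DNMT1 or DNMT1 with the alanine substitutions W796A, W465A, W464A/W465A, W465A/W796A or W464A/W465A/W796A. Each of these 6 groups has 3 biological replicates. Several stable lines were made per group, but the labels do not say whether the replicates are different lines, so the spread between them may be partly technical. Cells given the vector alone are not analysed here. Summed over all listed CpGs, read calls per library ran from 59776439 to 138978763, and replicate 1 of WT and of W796A had the lowest methylation of its group at 48.0% and 43.8% of calls.

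DNMT1 copies CpG methylation onto the new DNA strand after replication, so cells with too little of its activity lose methylation as they divide. Gene bodies and introns are usually methylated in ES cells, while CpG-rich promoters are usually free of it. Kcnmb2 encodes an auxiliary beta subunit of BK channels, the potassium channels opened by calcium and voltage, and its N-terminal end inactivates the channel. Slc44a5 encodes a member of the choline transporter-like family of membrane proteins. Both have been studied in the nervous system, among other tissues. No RNA was measured, so their expression in these cells is not known. Promoters of the stem cell genes Pou5f1, Nanog and Sox2 were at most 8.84% methylated in every library, and that of Esrrb, over 4 CpGs, lay between 50.0% and 96.4% in WT. Of the neural contrast genes, the promoters of Nes and Map2 were at most 3.47% methylated in every library, that of Rbfox3 was at 77.4% to 81.6% in WT, and that of Gfap at 25.8% to 48.2%.

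Kcnmb2 (ENSMUSG00000037610.15) spans chr3:31902507-32200180 of GRCm38 on the plus strand. Of its 2259 listed CpGs 551 were usable, and they fall into 191 tiles, 88 of which have at least 3. Its chosen tile is chr3:32028001-32029000, inside intron 1 of transcript Kcnmb2-201 and 125076 bp past the exon before it. No other gene overlaps the tile, and 15.1% of it is repeat-masked, that is, in lower case in the reference. Slc44a5 (ENSMUSG00000028360.9) spans chr3:153973436-154271722, also on the plus strand, with 860 usable of 2829 listed CpGs in 226 tiles, 124 of them with at least 3. Its chosen tile is chr3:154216001-154217000 in intron 3 of Slc44a5-201, 10870 bp past the exon before it and 5760 bp before the next. Of this tile 52.7% is repeat-masked and no other gene overlaps it.

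In each tile the 3 CpGs read 5 times or more in all 18 libraries lie on 1 BfaI fragment (cut at ctag), so they were read on the same molecules. The fragments are printed because the chosen falls rest on them. They are from GRCm38, 5′ to 3′ on the plus strand, with the covered CpGs in capitals.
Kcnmb2 fragment, chr3:32028591-32028711: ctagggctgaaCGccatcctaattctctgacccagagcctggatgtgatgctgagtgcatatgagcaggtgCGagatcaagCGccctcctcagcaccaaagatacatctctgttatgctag
Slc44a5 fragment, chr3:154216856-154217017: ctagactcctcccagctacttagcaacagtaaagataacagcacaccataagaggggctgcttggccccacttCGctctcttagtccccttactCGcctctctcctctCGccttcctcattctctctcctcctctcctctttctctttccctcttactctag
The Kcnmb2 fragment is 121 bp long with 70 bp between its first and last CpG, and the Slc44a5 fragment is 162 bp long with 35 bp between them. The read count of the second Kcnmb2 CpG equalled that of the first in 18 of 18 libraries, and the third equalled the second in 17. For Slc44a5 these counts were 16 and 15. Summed reads of these CpGs therefore count most molecules 3 times.

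The Kcnmb2 tile was nearly full in most WT libraries and nearly empty in W464A/W465A. Its level, the methylated share of all reads over its 6 usable CpGs, was 65.6%, 91.8% and 94.1% in the WT libraries and 11.1%, 6.67% and 2.04% in the W464A/W465A libraries, on 24 to 97 reads per library. The groups did not overlap, and WT replicate 1 lay well below the other WT libraries. This gap lay mostly on the CpGs off the fragment. On the 3 fragment CpGs the WT libraries had 93.3%, 100% and 97.2%. On the other 3 they had 41.2%, 74.2% and 86.7%, on 17, 31 and 15 reads. The means were 83.8% ± 15.8 (SD, n = 3) and 6.61% ± 4.54 (SD, n = 3). With the reads of the 3 libraries pooled, the fall was from 87.8% to 6.76%, just past the limit of 80 points. The next largest pooled fall of a Kcnmb2 tile in W464A/W465A was one of 73.4 points, from 90.6% in WT, at 29.99 kb from the transcription start site (TSS). In W464A/W465A/W796A the chosen tile was not the deepest. Its pooled fall there was one of 69.2 points, and another Kcnmb2 tile had one of 79.7 points.

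In the other groups the Kcnmb2 tile held intermediate levels. W796A libraries had 67.7%, 80.2% and 81.1%, within the range of WT. On the 3 fragment CpGs alone they had 73.3%, 91.2% and 84.85%, all below every WT library. The WT level of those CpGs entered the choice of the tile, so this was not tested. W465A libraries had 34.4%, 27.5% and 21.5%, and W465A/W796A libraries had 60.9%, 42.9% and 47.9%. The W464A/W465A/W796A libraries, at 20.9%, 16.7% and 15.8%, were all above the W464A/W465A libraries. The tile was chosen for its fall in W464A/W465A, so the lowest place of that group is favoured by the choice and was not tested. Over all usable CpGs of the tile, the order of the means was WT, W796A, W465A/W796A, W465A, W464A/W465A/W796A and W464A/W465A. Only WT and W796A overlapped among neighbours in it.

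The 6 CpGs of the Kcnmb2 tile did not start at the same level. The 3 on the BfaI fragment were at 100%, 97.4% and 97.4% in WT (39 reads each, 3 libraries pooled) and at 3.70%, 11.1% and 7.41% in W464A/W465A. The other 3 were at 61.9%, 76.0% and 64.7% in WT, on 17 to 25 reads, and at 13.6%, 5.26% and 0 in W464A/W465A. The CpG 775 bp into the tile had no methylated read in 26 from W464A/W465A, 19 from W465A and 16 from W464A/W465A/W796A, which allows up to 11.5%, 15.8% and 18.8%. In W465A/W796A it stood at 39.1%. Low methylation in W464A/W465A was thus shared by all 6 CpGs. Near-complete WT methylation was seen on the fragment, but its CpGs chose the tile, so their high WT level is part of the choice.

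The Slc44a5 tile was full in WT and emptied furthest in the triple mutant. Over its 3 usable CpGs the WT libraries had 92.9%, 93.8% and 94.9%, and the W464A/W465A/W796A libraries 3.51%, 6.98% and 2.63%, on 21 to 81 reads per library. The means were 93.8% ± 1.01 (SD, n = 3) and 4.37% ± 2.30 (SD, n = 3), and the pooled fall was from 93.8% to 4.35%. In W464A/W465A the libraries had 19.6%, 13.9% and 11.1%, all above the triple mutant, and the pooled fall there was one of 78.9 points, just short of 80. This tile was chosen for its fall in the triple mutant, so the lowest place of that mutant is favoured by the choice and was not tested. W465A libraries had 39.6%, 31.9% and 16.7%, and W465A/W796A libraries 37.8%, 47.6% and 44.4%, so these groups overlapped. W796A libraries had 94.9% and 98.5% in replicates 2 and 3 and 57.1% in replicate 1.

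**Figure D1:**
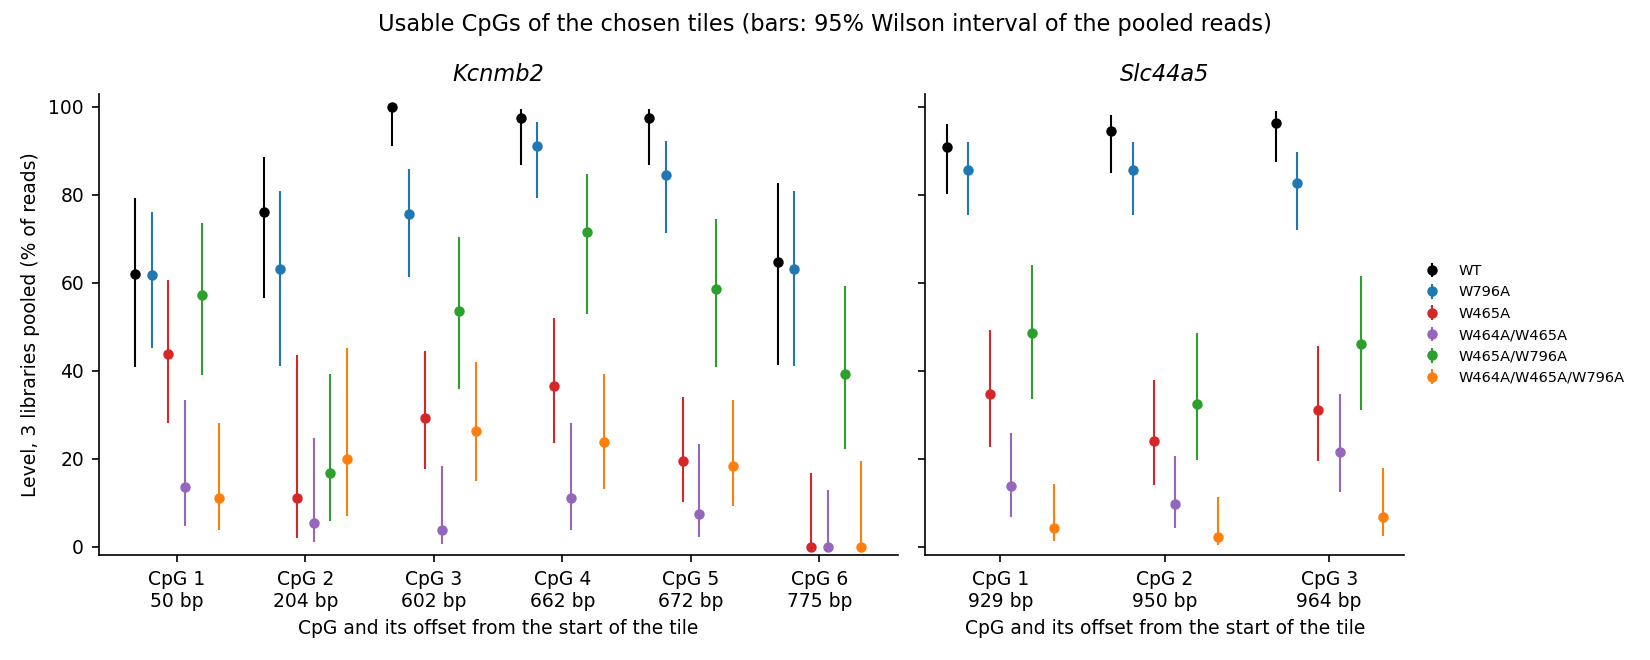
Methylation level of each usable CpG of the chosen tiles of Kcnmb2 (left) and Slc44a5 (right) in the 6 groups, as the percentage of reads pooled over 3 libraries, with 95% Wilson intervals that cover counting error only. CpGs 3 to 5 of Kcnmb2 and all 3 of Slc44a5 lie on the printed fragments; on them WT is at 90.7% or more.

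The rest of each gene body lost methylation in the same mutants, from a lower start. Outside the chosen tile the Kcnmb2 body, 545 CpGs with 3032 to 6838 reads per library, had 62.2%, 76.5% and 76.3% in WT and 19.8%, 25.2% and 20.6% in W464A/W465A. The difference of means was -49.8 points ± 5.04 (SE), and every W464A/W465A library lay below every WT library. The Slc44a5 body, 857 CpGs with 5477 to 13436 reads, had 61.2%, 70.7% and 72.3% in WT and 20.9%, 26.5% and 22.2% in W464A/W465A, a difference of -44.9 points ± 3.86 (SE). This value depended on the read minimum: over the 46 CpGs with 10 reads in all libraries, 27 of them in the promoter, it was -15.6 points. The triple mutant was at nearly the same levels as W464A/W465A, with 20.8%, 24.0% and 17.1% in Kcnmb2 and 23.1%, 28.2% and 21.3% in Slc44a5.

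Both bodies stood in the same order of groups. WT and W796A overlapped, with means of 71.7% and 72.6% in Kcnmb2 and 68.1% and 69.2% in Slc44a5. W465A/W796A followed at 48.5% ± 2.56 (SD, n = 3) and 50.4% ± 4.29 (SD, n = 3), then W465A at 30.6% ± 5.83 (SD, n = 3) and 34.1% ± 5.43 (SD, n = 3). W464A/W465A and the triple mutant came last and overlapped each other. W465A was separated from W465A/W796A above it and from W464A/W465A below it in both genes. In Slc44a5, W796A replicate 1 at 52.7% fell within the W465A/W796A libraries. The Slc44a5 difference between W465A/W796A and WT, -17.7 points, was -10.3 points over the 138 CpGs with 5 reads, of which 27 are in the promoter, and 0.164 points over the 46 with 10 reads. For W465A, at -33.9 points, these values were -22.6 and -6.54 points, and for the triple mutant, at -43.9 points, they were -30.05 and -12.7 points. Two-sided exact permutation tests of 3 libraries against 3 cannot give a p below 0.1. In these exact tests each mutant other than W796A gave p = 0.1 against WT in both bodies, and 0.136 after Benjamini-Hochberg adjustment over 42 such tests of bodies, promoters and neighbouring tiles.

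**Figure D2:**
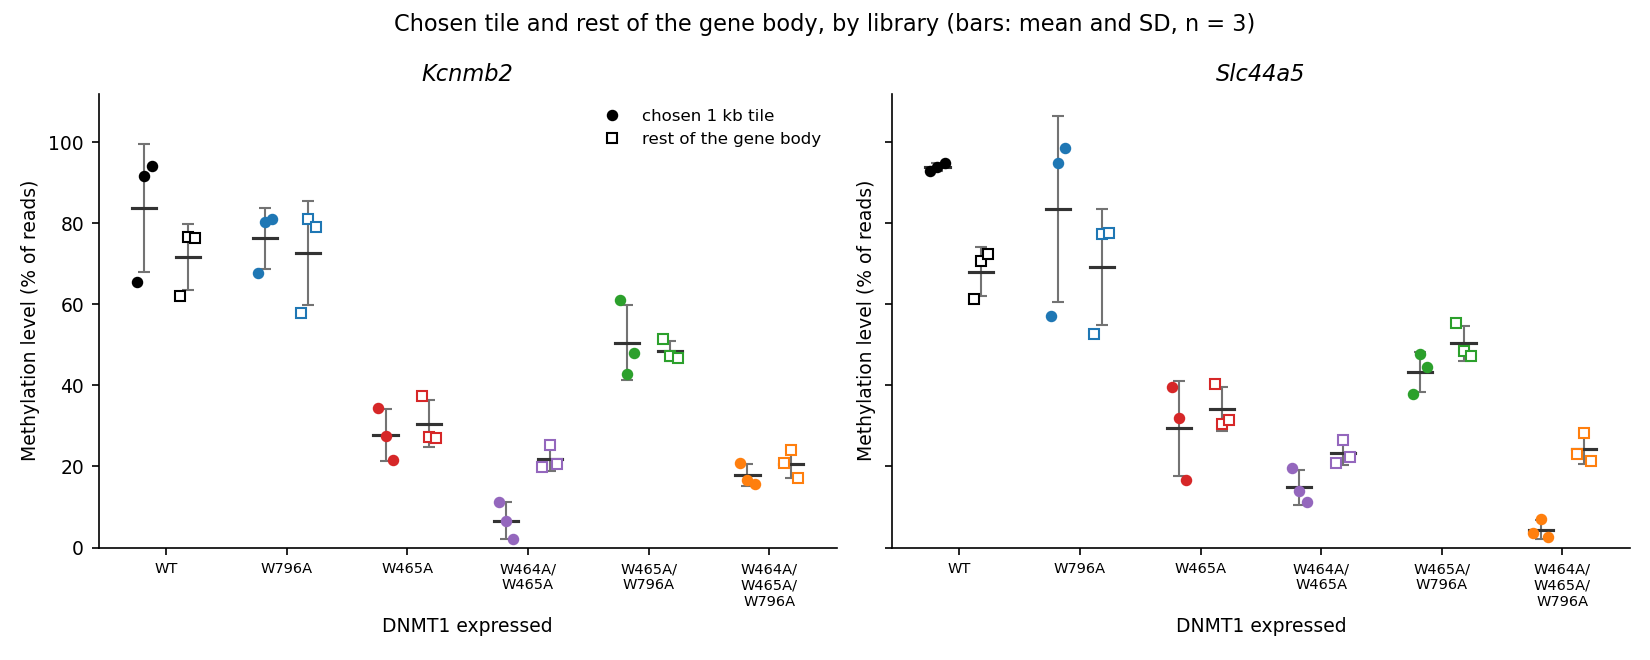
Methylation level (percentage of reads) in each library for the chosen tile (filled circles) and the rest of the gene body (open squares) of Kcnmb2 and Slc44a5, by the DNMT1 expressed, with mean and SD over 3 libraries. In WT the tiles lie on average above the bodies, and in W464A/W465A all 3 libraries of each tile lie below the bodies' means.

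Set against the rest of its own gene, each chosen tile stood high in WT and low in the mutant that chose it. The Kcnmb2 tile minus the rest of the body was 12.2 points ± 7.65 (SD, n = 3) in WT, -15.3 points ± 5.69 (SD, n = 3) in W464A/W465A and -2.88 points ± 3.93 (SD, n = 3) in the triple mutant. The Slc44a5 tile minus the rest was 25.8 points ± 5.11 (SD, n = 3) in WT, -8.34 points ± 6.13 (SD, n = 3) in W464A/W465A and -19.8 points ± 1.26 (SD, n = 3) in the triple mutant. A fall of over 80 points needs a WT level of at least 80% and a low level in the mutant that chose the tile. The offsets in WT and in that mutant are therefore part of the choice. The rest of the Slc44a5 body includes 34 CpGs of its nearly unmethylated promoter. Without these the offsets were 15.9 points ± 7.25 (SD, n = 3) in WT, -10.8 points ± 5.64 (SD, n = 3) in W464A/W465A and -22.0 points ± 1.60 (SD, n = 3) in the triple mutant. Without the promoter CpGs of Kcnmb2 its WT offset was 11.6 points ± 7.75 (SD, n = 3).

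The surrounding 20 kb did not show the depth of loss for which the tiles were chosen, and this difference was not tested. Over 40 CpGs of the 20 tiles around it, 10 on either side, the Kcnmb2 region went from 78.2% ± 8.23 (SD, n = 3) in WT to 28.2% ± 4.28 (SD, n = 3) in W464A/W465A. Over 45 CpGs the Slc44a5 region went from 73.7% ± 16.5 (SD, n = 3) to 28.6% ± 3.99 (SD, n = 3) in the triple mutant. The Kcnmb2 tile next to the chosen one, 1 kb further from the TSS, had a pooled 80.2% in WT and 23.6% in W464A/W465A.

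**Figure D3:**
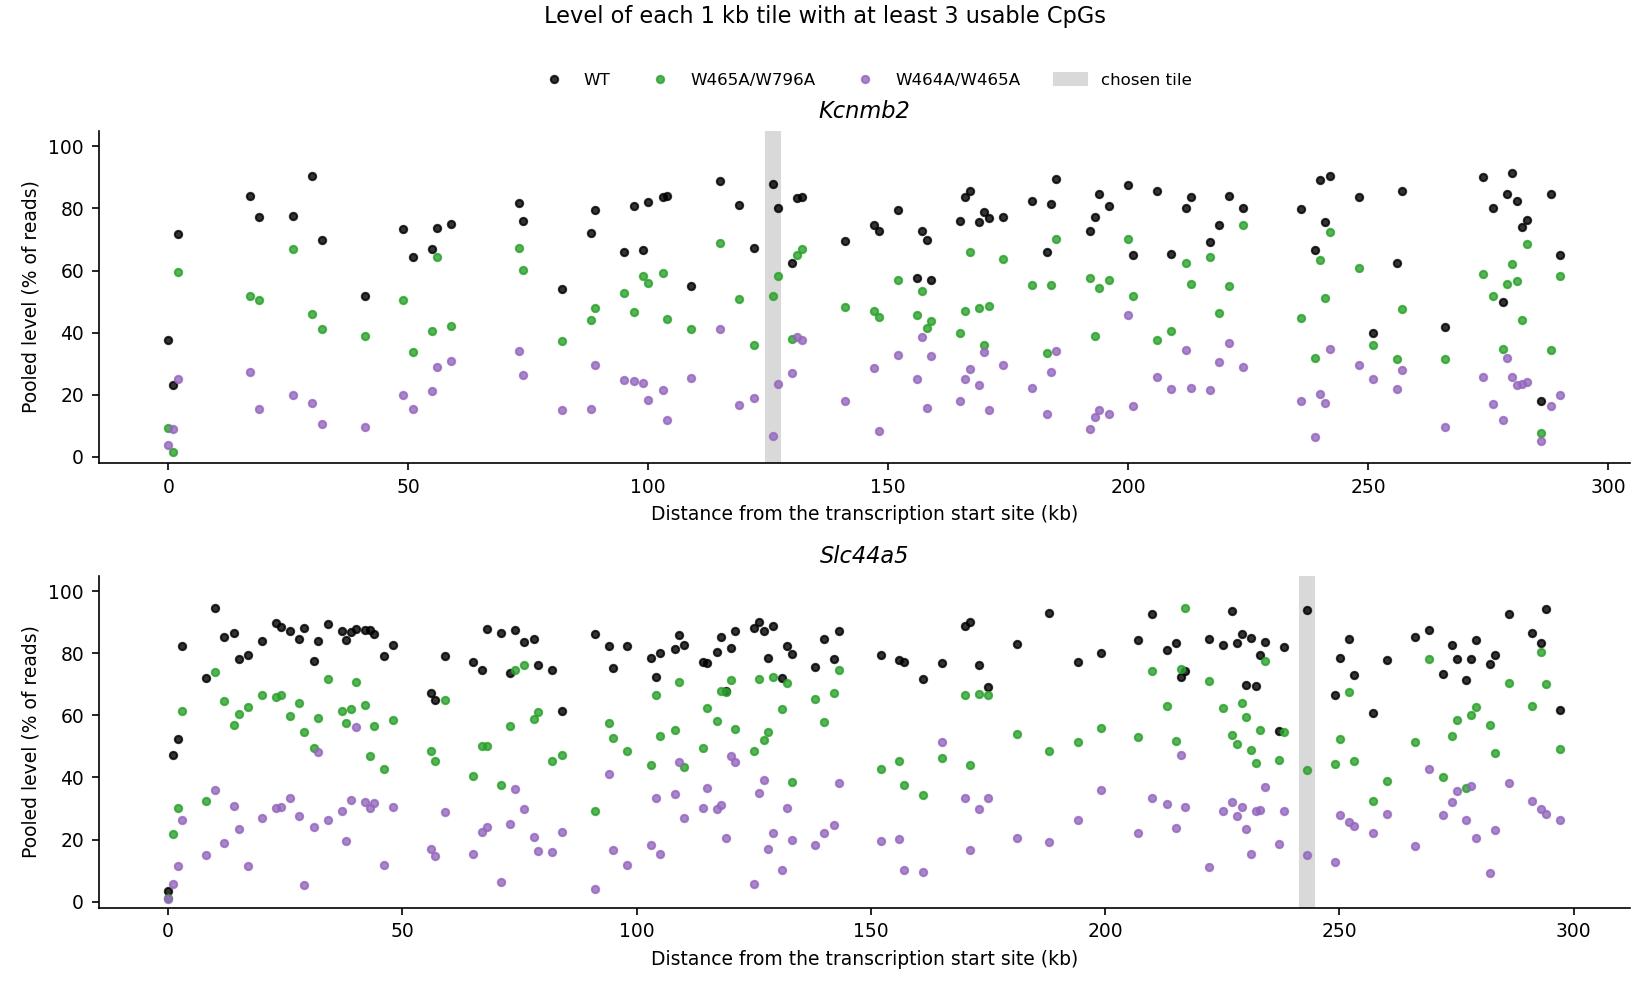
Level of each 1 kb tile with at least 3 usable CpGs (percentage of reads, 3 libraries pooled) against the distance of the tile's centre from the TSS in kb, for WT, W465A/W796A and W464A/W465A; grey bands mark the chosen tiles. The groups keep their order along nearly the whole of both genes, and other Slc44a5 tiles reach levels as low as the chosen one in W464A/W465A.

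Loss was spread over nearly all tiles of both genes. Tiles were tested with a quasi-binomial model over all 18 libraries and called lower at an adjusted p under 0.05 with a fall of at least 10 points. In W464A/W465A 84 of the 87 other Kcnmb2 tiles and 117 of the 123 other Slc44a5 tiles were called lower than WT, where 94.3% of all tiles were. In the triple mutant these were 83 and 121, against 95.0% of all tiles, and in W465A 79 and 110, against 90.6%. The shares are near those of the genome. The median differences in W464A/W465A were -52.2 points in Kcnmb2 and -54.3 points in Slc44a5, beside -52.4 points over all tiles. All these tiles had lower pooled levels than WT in the 3 mutants.

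Fewer tiles were called in W465A/W796A. Against WT, 26 of 87 Kcnmb2 tiles and 48 of 123 Slc44a5 tiles were lower, where 29.6% of all tiles were; without WT replicate 2 none were called in either gene, and without WT replicate 1 the shares were 46.0% and 52.0%. Leaving out any WT or W465A/W796A library or W796A replicate 1 moved the Kcnmb2 share by more than 1.5 times, and leaving out WT replicate 2 or 3 or W465A/W796A replicate 2 or 3 moved the Slc44a5 share as much. Shares over all tiles were not computed with libraries left out. A shift of these genes can therefore not be told apart from one of all tiles. Against W465A, 9 and 17 tiles were called higher, which is 10.3% and 13.8% where 19.8% of all tiles were. The median rise over W465A was 17.7 points in Kcnmb2 and 18.1 points in Slc44a5, beside 21.0 points over all tiles. W796A alone had no tile called lower or higher than WT in either gene by the quasi-binomial model, where 0.000388% of all tiles were lower and 0.00323% higher. An unadjusted p under 0.05 was found in 1 of the Kcnmb2 and 8 of the Slc44a5 tiles, which is 1.15% and 6.50% beside 3.38% of all tiles, and limma called none lower.

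A fall past 80 points was not confined to the chosen tiles. With at least 1 read per library, 1 of 88 Kcnmb2 tiles and 6 of 124 Slc44a5 tiles fell by over 80 points in W464A/W465A or the triple mutant, and 0.948% of all tiles did (0.59% and 0.518% in the mutants taken singly). The other Slc44a5 tiles, with 3 or 4 CpGs each, lay 29.1, 71.1, 91.1 and 125 kb from the TSS, with pooled falls in W464A/W465A from 80.1 to 83.0 points, and 231 kb from it, with one of 83.4 points in the triple mutant. Their shallowest libraries had 5 to 12 reads. When tiles with fewer than 3 CpGs were counted too, 11 of 191 Kcnmb2 tiles and 10 of 226 Slc44a5 tiles fell that far, and 5.17% of all 1539924 such tiles did.

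Such falls were most frequent where reads were fewest. Of all tiles at 80% or more in WT, 6.43% fell by over 80 points when the shallowest library had 3 to under 10 reads, 1.27% at 10 to under 20, 0.336% at 20 to under 40 and 0.133% at 40 to under 80. The chosen tiles, at 24 and 21 reads in their shallowest library, belong to the bin of 20 to under 40 reads, in which 297 of 88519 tiles fell that far. Reads per tile include those counted once for each CpG of a fragment.

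**Figure D4:**
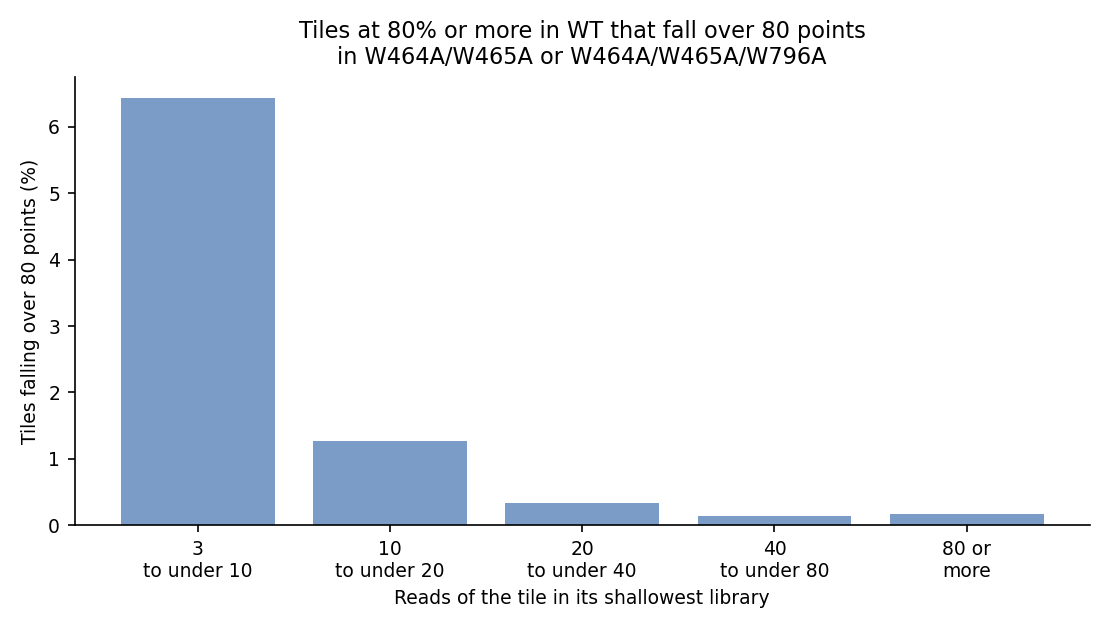
Share of tiles at 80% or more in WT that fell by over 80 points in W464A/W465A or W464A/W465A/W796A (vertical axis, percent), by the reads of the tile in its shallowest library (horizontal axis). The share goes from 6.43% at 3 to under 10 reads to 0.167% at 80 reads or more.

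Contrasts that did not enter the choice of the tiles tested W796A and W465A in combination. In the Kcnmb2 tile the pooled level of W465A/W796A was 51.9%, against 27.3% in W465A (adjusted p = 0.0534) and 76.3% in W796A (adjusted p = 0.0377). Of all tiles 19.8% were called higher in the first contrast and 29.3% lower in the second. The first difference missed the threshold although the libraries of the groups did not overlap, and the second passed it. The second was lost on the 3 fragment CpGs alone, at -22.5 points with adjusted p = 0.0706, and the first passed there, at 32.7 points with adjusted p = 0.0335. The first also passed without WT replicate 1 or 2, W796A replicate 1 or 2, or W465A replicate 1, with adjusted p from 0.0287 to 0.0457. It did not pass without W465A replicate 2 or 3 or any single W465A/W796A library, with adjusted p from 0.0621 to 0.255. With limma it did not pass either (adjusted p = 0.183). The second was lost without W796A replicate 2 or 3 or W465A/W796A replicate 2 or 3, with adjusted p from 0.0993 to 0.163, and with limma (adjusted p = 0.0941).

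In the Slc44a5 tile W465A/W796A had a pooled level of 42.3%, against 29.9% in W465A, which did not pass (adjusted p = 0.407). Against W796A at 84.5% it was lower by 42.2 points and passed (adjusted p = 0.0134). Without W796A replicate 2 this adjusted p was 0.0688. Relative to the rest of the body, the tile of Kcnmb2 in W465A/W796A differed by 4.88 points ± 4.38 (SE) from W465A (exact permutation p = 0.4) and by -1.62 points ± 5.14 (SE) from W796A (exact permutation p = 0.7), and the groups overlapped. That of Slc44a5 was 21.4 points ± 7.25 (SE) lower relative to its body in W465A/W796A than in W796A, with no overlap and the smallest exact p the design allows, 0.1. With the promoter and a 29-CpG stretch low in W796A left out of the body, the difference was 17.0 points ± 8.28 (SE), the groups overlapped and the exact permutation p was 0.2.

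At the start of each gene W465A/W796A libraries overlapped those of W465A. In the body outside the chosen tile, which includes 8 promoter CpGs in Kcnmb2 and 34 in Slc44a5, they lay above them. This difference between the start and the body was not itself tested. The Slc44a5 promoter had means of only 3.57% in WT and 1.06% in W465A, which leaves little room to see a rise. The promoter windows, 500 bp either side of the first TSS, hold 9 usable CpGs in Kcnmb2 and 52 in Slc44a5. The 250 bases before each TSS are printed from GRCm38, plus strand, with every CpG in capitals, because their CpG content differs.
Kcnmb2, chr3:31902257-31902506: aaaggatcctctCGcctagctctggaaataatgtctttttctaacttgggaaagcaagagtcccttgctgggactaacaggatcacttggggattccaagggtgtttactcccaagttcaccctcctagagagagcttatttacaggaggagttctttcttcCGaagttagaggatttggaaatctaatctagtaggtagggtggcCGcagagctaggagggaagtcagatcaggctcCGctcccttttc
Slc44a5, chr3:153973186-153973435: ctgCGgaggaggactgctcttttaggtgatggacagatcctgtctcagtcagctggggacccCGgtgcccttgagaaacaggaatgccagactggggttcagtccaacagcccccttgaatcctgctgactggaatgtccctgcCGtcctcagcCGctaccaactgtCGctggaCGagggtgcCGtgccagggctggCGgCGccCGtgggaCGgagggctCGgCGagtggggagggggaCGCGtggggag
The first holds 4 CpGs and the second 15. RefSeq places the Kcnmb2 start 196 bp further on, and the 250 bases before that start hold 8 CpGs. Over the same length, 32851 RefSeq mouse promoters had a median of 6, 43% had at least 8 and 27.3% at least 15.

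The Kcnmb2 promoter was partly methylated in WT, at 28.8%, 37.7% and 47.1%, on 42 to 122 reads per library over all groups. W796A libraries had 25.9%, 55.6% and 52.5%, overlapping WT. W465A libraries had 11.7%, 0 of 42 reads (which allows up to 7.14%) and 5.505%. W465A/W796A libraries had 8.60%, 11.1% and 8.62%, which overlapped W465A and lay below every WT library. The rise over W465A was 3.71 points ± 3.48 (SE), with exact permutation p = 0.4, which is 11.5% of the loss of W465A from WT. In the body outside the chosen tile, which still includes 8 promoter CpGs, the rise was 17.9 points ± 3.68 (SE), or 43.5% of the loss. The 1 kb tile after the promoter was alike, with pooled levels of 23.1% in WT, 3.25% in W465A and 1.54% in W465A/W796A, while the one after it had 71.9%, 23.9% and 59.6%.

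The Slc44a5 promoter had little methylation in every group. WT libraries had 3.17%, 3.02% and 4.53%, on 461 to 2316 reads per library over all groups. W796A libraries had 2.91%, 11.4% and 10.8%, so that replicates 2 and 3 were above WT and replicate 1 was not. W796A thus overlapped WT, with a difference of 4.81 points ± 2.78 (SE) and exact permutation p = 0.4. The remaining groups were between 0.283% and 2.06% in every library, below every WT library. The tile after the promoter, with 14 CpGs, had pooled levels of 47.3% in WT, 71.3% in W796A, 25.9% in W465A and 21.9% in W465A/W796A, and the difference between W796A and WT there did not pass (adjusted p = 1). At 13 CpGs of the tile 3 kb from the TSS W465A/W796A was back above W465A, at 61.4% against 37.5%, with 82.4% in WT.

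A stretch of Slc44a5 was low in W796A. It covers chr3:154029001-154031000, 55.6 to 57.6 kb from the TSS and intronic, and was singled out after its values were seen, as the tiles of either gene with an unadjusted p under 0.001 for W796A against WT. Its 29 usable CpGs are all repeat-masked, as is 88.3% of the stretch. WT libraries had 59.7%, 83.3% and 27.2%, and W796A libraries 15.8%, 28.8% and 32.6%. WT replicate 3 thus lay within the W796A libraries, and the groups overlapped. W465A libraries had 27.6%, 24.2% and 29.3%, and W465A/W796A libraries 48.4%, 38.6% and 52.9%, all above every W796A library, the group whose low values chose the stretch.

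In the tile model the W796A differences from WT were -43.1 and -42.0 points for the 1 kb tiles of the stretch, with adjusted p = 0.139 and 0.206. Single WT libraries decided these values. Without WT replicate 3 both passed, at -53.4 and -52.9 points (adjusted p = 6.76e-04 and 0.00261), and without WT replicate 2 they were -17.1 and -24.1 points (adjusted p = 1 for both). Over all 115 repeat-masked CpGs of the gene outside the chosen tile, the stretch included, WT libraries had 65.7%, 81.5% and 63.1% and W796A libraries 38.8%, 64.0% and 61.4%. In the 708 CpGs of the gene that are neither repeat-masked nor in the promoter or chosen tile, WT libraries had 69.1%, 83.3% and 85.3% and W796A libraries 65.6%, 89.8% and 85.1%.

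**Figure D5:**
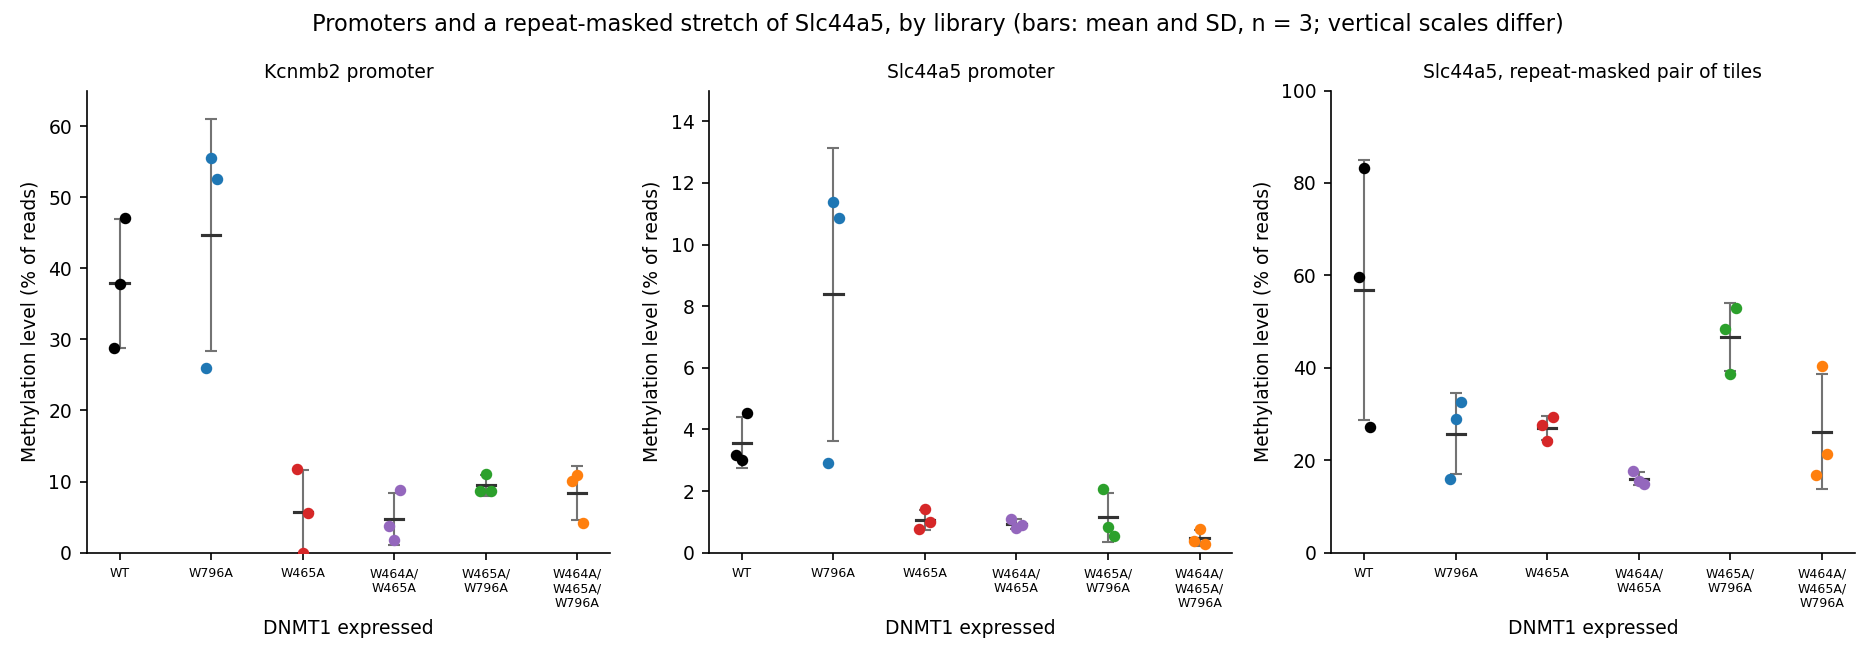
Methylation level (percentage of reads) in each library for the promoter of Kcnmb2 (9 CpGs), the promoter of Slc44a5 (52 CpGs) and the repeat-masked stretch of Slc44a5 (29 CpGs), by the DNMT1 expressed, with mean and SD over 3 libraries; the vertical scales differ. W465A/W796A overlaps W465A at both promoters and lies above it in the stretch, where the WT libraries run from 27.2% to 83.3%.

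Levels of Kcnmb2 overlapped between repeat-masked and other sites and between CpG densities. Its 84 repeat-masked CpGs outside the tile had 59.8%, 77.4% and 75.1% in WT and 13.7%, 27.8% and 17.5% in W464A/W465A, and the 453 others outside the promoter 63.5%, 77.05% and 77.2% and then 21.4%, 25.4% and 21.4%. Its 298 CpGs with 1 to 5 CpGs within 250 bp and its 239 with more likewise overlapped in each of these groups. Within each library the 298 were slightly higher than the 239 in WT and slightly lower in W464A/W465A. The means were 73.25% and 71.25% in WT and 21.45% and 23.05% in W464A/W465A, and this was not tested. The 6 exonic CpGs outside the promoter had 68.8%, 90.7% and 91.1% in WT and 34.4%, 35.6% and 15.9% in W464A/W465A.

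Fitted as whole bodies, the members were called in 7 of the 10 contrasts between groups that were computed. The whole bodies include the chosen tiles, so their falls from WT in W464A/W465A and the triple mutant are a description. Kcnmb2 fell by 51.4 points in W464A/W465A and Slc44a5 by 45.9 points, in pooled levels, where 89.5% of gene bodies were called lower. Of all bodies 13.1% fell as far as Kcnmb2 or further, and 25.3% as far as Slc44a5. W465A/W796A was above W465A by 18.3 points in Kcnmb2 (adjusted p = 0.0134) and by 16.4 points in Slc44a5 (adjusted p = 0.0216), where 67.5% of bodies were called higher. It was below W796A by 24.5 points (adjusted p = 0.0138) and 18.8 points (adjusted p = 0.0215), where 41.3% were called lower. The triple mutant was below it by 28.4 points in Kcnmb2 and 26.9 points in Slc44a5 (adjusted p = 4.80e-04 and 6.59e-04), where 80.3% were called lower. With W796A added, the Kcnmb2 body was 0.0504 points higher on the WT background and 18.3 points higher on W465A, and the Slc44a5 body 0.402 and 16.4 points higher. The test of this difference between backgrounds did not pass in either gene (adjusted p = 0.0734 and 0.102), while 48.4% of all bodies had an adjusted p under 0.05 in it.

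Related genes lost methylation too. Of the 8 other BK channel genes, 7 were called lower in W464A/W465A, where 89.5% of gene bodies were, and 7 each in W465A, W465A/W796A and the triple mutant, where 88.3%, 52.9% and 89.8% were. The exception, Lrrc26, which encodes an auxiliary gamma subunit, was at 6.45% ± 5.01 (SD, n = 3) in WT. Kcnma1, which encodes the pore-forming subunit, went from 64.7% ± 7.97 (SD, n = 3) to 20.8% ± 3.13 (SD, n = 3). The beta subunit genes Kcnmb1, Kcnmb3 and Kcnmb4 went from 74.7%, 74.9% and 55.2% to 29.0%, 26.6% and 19.8%. The median over the 8 genes was -45.3 points, beside -33.9 points over all genes. Of their 353 tiles 2 fell by over 80 points (0.567%), both in Kcnma1, beside 0.948% of all tiles in W464A/W465A or the triple mutant.

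All 10 choline transport and choline use genes were called lower in W464A/W465A, with a median of -36.9 points, beside 89.5% and a median of -33.9 points over all gene bodies. In W465A/W796A 6 of them were, where 52.9% of all bodies were. The family members Slc44a1, Slc44a2, Slc44a3 and Slc44a4 went from 60.4%, 51.3%, 67.7% and 68.2% in WT to 23.1%, 14.9%, 19.1% and 18.7%. Chkb, a choline kinase gene, was at 19.1% ± 3.51 (SD, n = 3) in WT and 20.4% in W465A/W796A (adjusted p = 0.959). None of the 290 tiles of this list fell by over 80 points, beside 0.948% of all tiles in W464A/W465A or the triple mutant.

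Other gene bodies had closely similar levels. The smallest mean absolute differences from Kcnmb2 over the 18 libraries were those of Syt1, Tmem178b and Kcnab1, at 0.978, 0.999 and 1.01 points, and from Slc44a5 those of Slc36a1, Pdzrn4 and Rgs6, at 1.28, 1.32 and 1.35 points. The medians over all bodies were 14.2 and 14.8 points. The tiles most like the chosen ones differed more, with 4.03 points for 1 in Myocd against the Kcnmb2 tile and 5.65 points for 1 in Bmpr1b against the Slc44a5 tile.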

How the data were processed

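eRRBS libraries of 18 samples, in 6 groups of 3, were compared. The authors deposited 2 read counts per CpG and library, those methylated and the total, as whole numbers without normalization. Per the submitters' processing notes, cutadapt 1.2.1, Bismark 0.18.1 and Bowtie 1.2 and the builds mm10 and GRCm38 were named. Per the labels' protocols, the enzymes were MspI, BfaI and MseI and fragments were sequenced from both ends. Removal of duplicates is not given in the sources used here, so reads are not independent molecules and intervals cover counting error only.

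All 1191216 chromosome 3 positions are CpGs of GRCm38, so genes came from GENCODE M21. CpGs needed 1 read in all 18 libraries. A level is summed methylated over summed reads. Tile tests take whole 1 kb tiles with at least 3 CpGs, also at gene edges, and gene bodies only CpGs inside the gene. Both went into a logistic model with quasi-binomial errors over the 18 libraries. Overdispersion was squeezed across tiles as limma's squeezeVar does, followed by an F test and Benjamini-Hochberg adjustment over all tiles or genes. Calls needed an adjusted p under 0.05 and 10 points in pooled levels. The model was tested on simulated data. Levels over libraries were compared by exact permutation tests.

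Python 3.11.15, numpy 2.4.6, scipy 1.17.1, and, as an alternative, limma 3.58.1 in R 4.3.3 were used. The members, tiles, lists and tests were chosen with earlier results of these data known. Named genes are the members, the BK channel and choline lists and the 3 bodies and tiles with the smallest mean absolute difference from each member. Alternatives were other read minimums, tile sizes and CpG minimums, the top 0.1% of coverage left out, no squeezing, limma, fits of the compared groups alone, a replicate block, each CpG counted once and each library left out.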

Additional observations from a re-analysis of the deposited data

How the results depend on the processing

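Under every alternative that gave a value, the bodies outside the chosen tile kept their direction in W465A, W464A/W465A and the triple mutant, and the shares of tiles called lower there stayed within 1.5 times those reported. With 10 reads the Slc44a5 body differences shrank to -6.54, -15.6 and -12.7 points over 46 CpGs. Leaving the promoter, or the promoter and the low stretch, out of the rest of the body was chosen after seeing the data, and moved the Slc44a5 tile's offset in WT from 25.8 to 15.9 and 14.7 points. The Kcnmb2 tile difference between W465A/W796A and W465A passed at 32.7 points with 5 reads, 31.8 points with 500 bp tiles, 23.6 points with 5 kb tiles and 24.6 points with only the compared groups, and ranged from 18.2 to 28.4 points with 1 library left out. Its difference from W796A did not pass at -22.5 points with 5 reads, -24.7 points with 500 bp tiles, or -24.4 points without squeezing, with limma, with only the compared groups and with the replicate block (adjusted p = 0.0517), and ranged from -30.8 to -21.0 points with 1 library left out. The same difference in Slc44a5 did not pass with only the compared groups (-42.2 points, adjusted p = 0.0883), and ranged from -54.2 to -35.7 points.

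The share of Kcnmb2 tiles called lower in W465A/W796A than in WT, 29.9%, was 59.3% with 5 kb tiles, 19.9% with 1 CpG per tile, 4.60% with limma and 16.1% with the replicate block, and from 0 to 46.0% with 1 library left out. That of Slc44a5, 39.0%, was 20% of 5 tiles with 10 reads, 70.0% with 5 kb tiles, 23.1% with 1 CpG per tile, 24.4% without squeezing and 8.94% with limma, and from 0 to 52.0%. Libraries whose omission moved the Kcnmb2 share were all 3 of W465A/W796A, all 3 of WT and W796A replicate 1, and those that moved the Slc44a5 share were WT replicates 2 and 3 and W465A/W796A replicates 2 and 3. Slc44a5 tiles called lower in W796A were 1.63% without WT replicate 3, from a lowest of 0. Shares over all tiles were not computed under these alternatives, and the cause of these shifts was not tested.

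The whole body of Slc44a5 was called in 3 contrasts with 10 reads. Its rest of the body differed by 0.164 points between W465A/W796A and WT with 10 reads (46 CpGs), and by -0.256 points between W796A and WT with each CpG counted once. With 1 library left out, W796A minus WT ranged from -3.79 to 8.35 points in the Kcnmb2 body and from -3.02 to 9.39 points in the Slc44a5 body, turning negative without WT replicate 1 or W796A replicates 2 or 3. With 10 reads no Kcnmb2 CpG remained and neither chosen tile gave a value. After subtracting group means, libraries sharing a number correlated over tiles at 0.0538 to 0.0825 between WT and W796A. Those of different number correlated at -0.0876 to 0.0241 there. In the 14 other pairs of groups, libraries sharing a number correlated at most at 0.0375. The minimum set for pairing was 0.1, so the numbers were not taken as pairs. The main fit thus leaves aside a weak replicate structure shared by WT and W796A. The permutation with the replicate block cannot go below p = 0.25 and says nothing of stability.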
